A study of Homo sapiens with 30 samples.

Results

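Chromatin that was accessible on day 4 in every culture derived from anterior neural ectoderm, and in no culture derived from posterior neural ectoderm, comprised 3037 of 476170 merged regions on chromosomes 1 to 22, or 0.638%. The regions were chosen by the 6 day 4 peak lists themselves, so their presence in the 3 anterior-derived lists and their absence from the 3 posterior-derived lists is a definition and not a finding. Overlapping peaks of the 10 lists, with 1 bp as the smallest overlap, were joined into a region. A list is called open at a region where it has a peak there. The questions addressed were where these regions lie and whether they were already open in the stem cells, the ectoderm and the 2 neural ectoderm populations that came before. Regions with the opposite pattern, open in all 3 posterior-derived lists and in no anterior-derived list, served as the comparison set and numbered 11092 (2.33%).

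All cultures were wild-type cells of H1, a human embryonic stem cell line, profiled by OmniATAC-seq, an assay in which a transposase cuts and tags accessible DNA. Pluripotent cells (hPSC, day 0) were turned into definitive ectoderm (DE, day 1) with A8301, Trametinib, C59 and LDN193189, which inhibit TGF-beta type I receptors, MEK, WNT secretion and BMP type I receptors. On day 2 they became anterior neural ectoderm (aNE) with A8301, LDN193189, C59 and Thiazovivin, or posterior neural ectoderm (pNE) with A8301, LDN193189, the retinoic acid receptor agonist TTNPB at 50 nM, FGF2, XAV939 and Thiazovivin. Each was then moved to telencephalon, midbrain or hindbrain medium until day 4, which gave aNE_T, aNE_M and aNE_H on one side and pNE_T, pNE_M and pNE_H on the other. The labels used here give the first forebrain additions (XAV939, LDN193189 and FGF2) and not those of the midbrain and hindbrain media. There were 30 libraries in 10 groups of 3 replicates, but 1 peak list per group, so no difference below has a replicate test. Intervals are Wilson 95% intervals that cover counting error only, and each comparison is between lists. Cells kept past day 2 were plated more sparsely in the anterior than in the posterior protocol, so origin and plating density cannot be told apart on day 4. The lists held 162041 (aNE) to 302355 (pNE_H) peaks on these chromosomes, and the sequencing depth behind them is unknown.

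Neural tissue forms from ectoderm when BMP and TGF-beta signals are held back, and its front end keeps a forebrain character unless posteriorising signals such as retinoic acid, FGF and WNT act on it. Open chromatin marks promoters, where transcription starts, and distal enhancers, where tissue-specific transcription factors bind. Enhancers of developmental genes often lie far from the gene they act on, so the nearest gene is a position and not a shown target.

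Few of the regions covered a promoter. Only 33 of the 3037 (1.09%, interval 0.775 to 1.52%) overlapped a RefSeq promoter of 300 bp, against 14.0% of the 96805 regions open in all 6 day 4 lists, 1.43% of the posterior-derived set and 3.60% of all merged regions. The share was 1.26% at the 39399 other regions open in exactly 3 day 4 lists, so it is not particular to this set. They met 34 promoters of 33 genes, 16 of them protein-coding, and covered 12 promoters in full. Overlap was counted on the merged region, which can also hold peaks of the earlier lists. At some of the 34, no promoter base lay in peaks of all 3 anterior-derived lists. RNF39 and PDZK1IP1, both covered in full by the merged region, were among these. The 5 shown here are those among the 8 most fully covered protein-coding promoters in which peaks of all 3 anterior-derived lists shared at least 125 bases of the 300. Each line is the 250 bases before an annotated start of the gene, called its start below. It is read 5′ to 3′ along the gene from RefSeq on GRCh38.p14, with capitals for bases inside peaks of aNE_T, aNE_M and aNE_H at once. An annotated start need not be the main or outermost start of its gene. For example, the region at the ELAPOR1 promoter lay inside that gene, 20262 bp from its nearest end. ZNF280A, a zinc finger gene, is at chr22:22520271-22520520 on the minus strand. PLA2G4F, a cytosolic phospholipase A2 gene, is at chr15:42156637-42156886, also on the minus strand. GPX2, a glutathione peroxidase gene best known from the gut, is at chr14:64942746-64942995 on the minus strand. TCP11, a gene known from testis, is at chr6:35141340-35141589 on the minus strand. NUP93, a nuclear pore scaffold gene, is at chr16:56783206-56783455 on the plus strand.
ZNF280A: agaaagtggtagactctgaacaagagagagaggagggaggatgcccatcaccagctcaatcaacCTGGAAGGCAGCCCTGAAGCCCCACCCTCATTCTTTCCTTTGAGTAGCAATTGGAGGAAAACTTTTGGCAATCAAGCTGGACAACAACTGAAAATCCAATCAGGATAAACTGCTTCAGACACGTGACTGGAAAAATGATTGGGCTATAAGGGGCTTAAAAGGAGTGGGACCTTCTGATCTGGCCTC
PLA2G4F: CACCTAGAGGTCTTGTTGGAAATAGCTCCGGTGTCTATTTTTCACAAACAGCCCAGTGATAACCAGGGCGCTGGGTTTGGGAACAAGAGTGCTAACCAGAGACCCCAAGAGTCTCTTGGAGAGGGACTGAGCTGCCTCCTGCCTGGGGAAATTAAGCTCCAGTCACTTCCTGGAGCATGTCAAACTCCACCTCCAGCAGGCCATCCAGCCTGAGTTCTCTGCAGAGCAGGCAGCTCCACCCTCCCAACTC
GPX2: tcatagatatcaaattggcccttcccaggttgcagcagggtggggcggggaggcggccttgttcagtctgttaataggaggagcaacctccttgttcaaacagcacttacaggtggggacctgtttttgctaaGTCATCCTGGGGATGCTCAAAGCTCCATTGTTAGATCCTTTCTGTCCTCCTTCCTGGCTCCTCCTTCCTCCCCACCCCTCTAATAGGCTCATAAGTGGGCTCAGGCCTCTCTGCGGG
TCP11: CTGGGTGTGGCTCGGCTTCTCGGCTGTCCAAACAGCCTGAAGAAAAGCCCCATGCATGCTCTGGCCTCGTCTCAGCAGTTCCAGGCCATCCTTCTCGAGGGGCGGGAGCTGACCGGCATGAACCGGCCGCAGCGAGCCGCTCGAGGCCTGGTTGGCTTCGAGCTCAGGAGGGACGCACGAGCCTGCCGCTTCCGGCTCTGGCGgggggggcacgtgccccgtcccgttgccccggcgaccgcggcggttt
NUP93: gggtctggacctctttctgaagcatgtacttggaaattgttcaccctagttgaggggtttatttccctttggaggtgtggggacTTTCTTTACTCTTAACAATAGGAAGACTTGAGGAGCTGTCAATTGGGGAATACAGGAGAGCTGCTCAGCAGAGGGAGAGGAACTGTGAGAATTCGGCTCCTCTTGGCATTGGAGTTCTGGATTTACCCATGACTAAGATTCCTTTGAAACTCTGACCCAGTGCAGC

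These 5 promoters had different earlier histories. ZNF280A, PLA2G4F and GPX2 had a peak in all 4 earlier lists, TCP11 in hPSC, DE and aNE but not pNE, and NUP93 in pNE alone. At ZNF280A the peak was 839 bp wide in hPSC, 752 in DE, 430 in aNE, 788 in pNE, 322 in aNE_T, 876 in aNE_M and 778 in aNE_H. At TCP11 it was 527 bp in hPSC, 229 in DE, 201 in aNE, 381 in aNE_T, 287 in aNE_M and 287 in aNE_H. At NUP93 it was 227 bp in pNE, 250 in aNE_T, 326 in aNE_M and 299 in aNE_H. Thus this NUP93 start had a peak in posterior neural ectoderm, in none of its 3 descendants, and in all 3 cultures grown from anterior neural ectoderm, which itself had none there. Whether it is the main start of NUP93 was not examined. Over all 33 promoter regions, 15 were open in all 4 earlier lists and 2 in none, against 24.9% and 9.25% of all 3037 regions.

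The 34 promoters met by the merged regions were poorer in GC than most promoters in regions open in all 6 day 4 lists. Some of the 34 had no base in peaks of all 3 anterior-derived lists, so these values describe the merged regions. Their median GC content was 52.8% and their median number of CpG dinucleotides 5, against 65.3% and 25 at the 19780 promoters in regions open in all 6 day 4 lists, 46.3% and 3 at the 169 in the posterior-derived set, and 58.7% and 14 over all 33725. Of 14 short motifs searched on both strands, the nuclear factor I motif TTGGCA was in 12 of the 34 promoters (35.3%, interval 21.5 to 52.1%), against 17.8% of the posterior-derived set and 12.5% of all promoters. Among the sequences shown it starts 122 bases before the start of ZNF280A and 64 bases before that of NUP93, in capitals both times. The SP/KLF motif GGGCGG was in 14 (41.2%), against 10.1% of the posterior-derived set and 45.0% of all promoters, and it lies 151 bases before the start of TCP11, in capitals, and 208 bases before that of GPX2, outside them. The E-box CAGCTG, a site type of neural basic helix-loop-helix factors, was in 2 (5.88%), against 26.6% of the posterior-derived set and 18.0% of all, while the E-box CATCTG was in 5 (14.7%), against 27.2% and 14.7%. GGAATG, read by TEAD factors, was in 1 (2.94%), against 17.2% and 14.0%. AGGTCA, read by retinoid and other nuclear receptors, was in 7 (20.6%), against 22.5% and 13.8%, and the OTX motif TAATCC in 2 (5.88%), against 4.14% and 6.37%. TGATTNAT, read by HOX and PBX together, was in 0 of 34 (interval 0 to 10.2%), against 9.47% and 2.83%. These are matches of letters in few sequences of unequal base composition, 2 of them overlapping promoters of IFI27, and the differences were not tested.

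Most of the regions were not new on day 4. DE held a peak at 2199 of the 3037 (72.4%, interval 70.8 to 74.0%), where 46.9% of all merged regions were open in DE. Their parent population, aNE, held 1733 (57.1%, 55.3 to 58.8%; 32.0% of all regions), hPSC held 1438 (47.3%, 45.6 to 49.1%; 40.5% of all regions), and pNE held 1941 (63.9%, 62.2 to 65.6%; 39.2% of all regions). At 281 regions (9.25%, 8.27 to 10.3%) none of the 4 earlier lists had a peak, against 35.0% of all merged regions. Without aNE_T in the rule, which left 8601 regions, the shares were 40.2% in DE, 25.7% in aNE and 29.5% in hPSC, each below that of all merged regions, 52.2% in pNE, and 27.7% in no earlier list. The excess over all regions in DE, aNE and hPSC thus depended on aNE_T, and without aNE_H (7883 regions) 39.6% were open in hPSC, also below the background, and 20.9% in no earlier list. The posterior-derived set differed at every step. It was open in hPSC at 9.88%, in DE at 13.2%, in aNE at 11.3% and in pNE at 24.7%, and in none of the 4 at 64.8% (63.9 to 65.7%). Regions open in all 6 day 4 lists were open earlier at 87.0%, 92.5%, 90.7% and 98.4% in the same order, and in none at 0.468%.

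**Figure D1:**
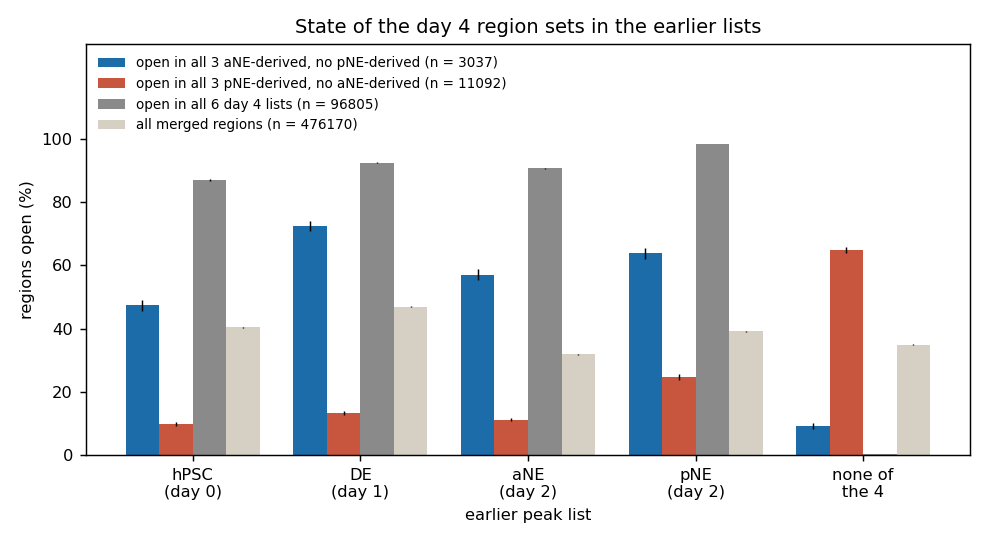
Share of regions, in percent, open in each of the 4 earlier peak lists and in none of them, for the 2 origin-dependent day 4 sets, the regions open in all 6 day 4 lists and all merged regions (whiskers, Wilson 95% intervals). The anterior-derived regions were open earlier at 47.3 to 72.4%, the posterior-derived regions at 9.88 to 24.7%, and the last group of bars shows 9.25% against 64.8% open in no earlier list.

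In the lists as deposited the anterior-derived regions had a peak more often in posterior than in anterior neural ectoderm, with an aNE minus pNE difference of -6.85 points. Over all merged regions the same lists differed in the same direction, at 32.0% against 39.2%, so the difference is not read as a property of these regions. The order also reversed with shortened earlier lists and without 1 day 4 list. The aNE list was the shortest of the 10. With the 4 earlier lists cut to the 162041 widest peaks and the 3037 regions kept, 36.7% were open in hPSC, 53.2% in DE, 57.1% in aNE and 45.7% in pNE. There aNE came above pNE by 11.4 points and above DE. This cut left aNE unchanged and dropped the narrowest peaks of hPSC, DE and pNE. At these regions pNE peaks were narrow, with a median of 212 bp against 298 bp at all its regions. Shares of all merged regions under this cut were not computed, so this order is not read as a property of the regions either. Without aNE_H in the rule, aNE came above pNE by 7.79 points, at 49.1% against 41.4%. The share open in no earlier list was 18.5% with the shortened earlier lists. With all 10 lists cut to one size the anterior-derived set grew to 4928 regions, 8.83% of them open in no earlier list, and the posterior-derived set shrank to 7274, with 63.8%.

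The 16 possible combinations of the 4 earlier states were all present. The most frequent was a peak in all of hPSC, DE, aNE and pNE, at 755 regions (24.9%), against 21.7% of all merged regions and 1.91% of the posterior-derived set. A peak in DE, aNE and pNE but not hPSC followed with 415 regions, and a peak in pNE alone with 296. The 281 regions without any earlier peak came next. Peaks in DE and aNE without hPSC or pNE stood at 230 (7.57%, against 0.622%). Those in hPSC, DE and aNE without pNE stood at 199 (6.55%, against 0.865%), and in hPSC, DE and pNE without aNE at 184 (6.06%, against 1.29%). Peaks in aNE alone were at 40 regions (1.32%, against 1.00%), and in aNE and pNE only at 61 (2.01%, against 4.50%). Both groups were closed in hPSC and DE and open in the parent, aNE. Peaks in hPSC alone were at 64 (2.11%, against 2.23%) and in DE alone at 132 (4.35%, against 3.61%). Besides the most frequent combination and the regions without any earlier peak, shares over all merged regions were not computed.

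**Figure D2:**
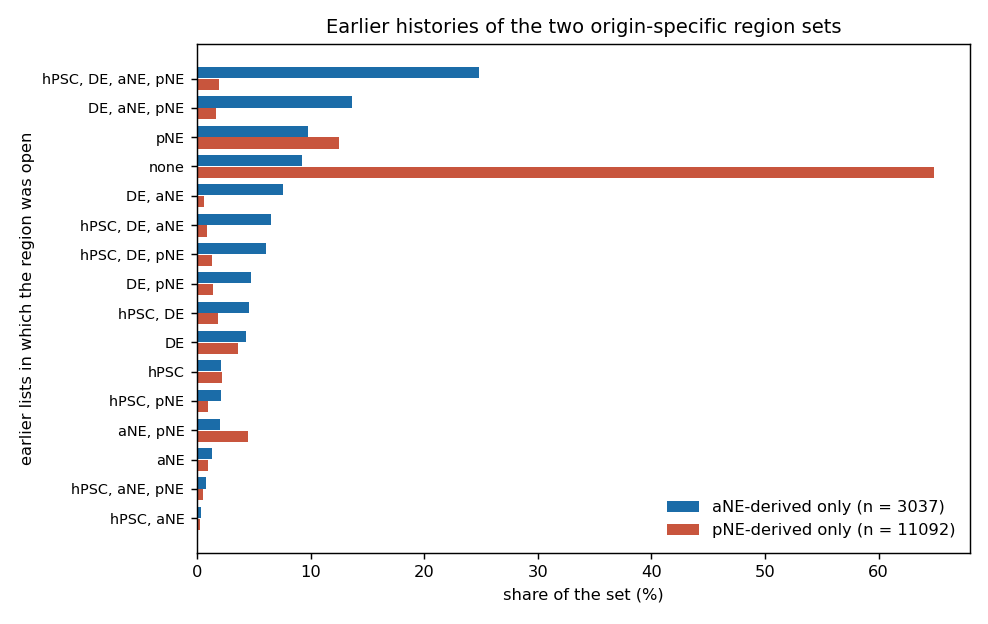
The 16 combinations of earlier peak lists (vertical axis) and the share of each set, in percent, that had them, for the 3037 anterior-derived and the 11092 posterior-derived regions. In the anterior-derived set the longest bar is open in all 4 lists, at 24.9%, and in the posterior-derived set it is open in none, at 64.8%.

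The 2 day 2 populations divided the regions as follows. Both were open at 1254 (41.3%), pNE alone of the pair at 687 (22.6%), aNE alone of the pair at 479 (15.8%), and neither at 617 (20.3%). Over all merged regions the shares were 26.4%, 12.7%, 5.55% and 55.3% in the same order, so pNE alone exceeded aNE alone there too. Of the 617, 336 (11.1% of the set, against 20.3% of all merged regions) had a peak in hPSC or DE, so they were closed in both day 2 lists between an earlier and a later peak. The regions open in pNE can also be set against all regions that pNE held and none of its descendants did. There were 17239 of these, 9.25% of its open regions. Of them 1941 (11.3%, 10.8 to 11.7%) were open in all 3 anterior-derived lists and 39.1% in none. The mirror count was 13591 for aNE, 8.93% of its open regions, and 1254 of those (9.23%, 8.75 to 9.72%) were open in all 3 posterior-derived lists. The 2 shares have unlike bases. Of all regions open in no posterior-derived list, 3037 were open in 3 anterior-derived lists, 11541 in 2, 36418 in 1 and 75044 in 0. In the mirror case the numbers were 11092, 31633, 99573 and 75044.

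The edge of the rule shows how much each list decides. Regions open in all 3 anterior-derived lists and in 1 posterior-derived list numbered 1376 where that list was pNE_T, 1017 for pNE_M and 5144 for pNE_H, the longest list. Regions open in no posterior-derived list and missing in 1 anterior-derived list numbered 5564 for aNE_T, 1131 for aNE_M and 4846 for aNE_H. Without pNE_H in the rule the set would hold 8181 regions, without aNE_T 8601 and without aNE_H 7883. The median distance from an anterior-derived region to the nearest posterior-derived peak was 1920 bp, and 588 regions (19.4%) had one within 500 bp. For the posterior-derived set and anterior-derived peaks the median was 3320 bp and the share within 500 bp 10.2%. The longest posterior-derived list held 302355 peaks and the longest anterior-derived list 211358, so the targets were of unlike number. No such distance was computed for all merged regions.

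Peaks in these regions were narrower than at all regions open in the same list, except in DE. Width is the only value that the lists give per peak. The median width at the 3037 regions was 231 bp in aNE_T, 225 bp in aNE_M and 208 bp in aNE_H, against 312, 295 and 292 bp at all regions open in those lists. At the other regions of exactly 3 day 4 lists the medians were lower still, at 207, 185 and 197 bp. Among the earlier lists it was 234 bp in hPSC (272 bp at all its regions), 273 bp in DE (273 bp), 259 bp in aNE (321 bp) and 212 bp in pNE (298 bp). DE was thus the list in which the regions had peaks of the same median width as elsewhere. Of the 3 anterior-derived peaks, that of aNE_T was the widest at 41.9% of the regions, that of aNE_M at 29.6% and that of aNE_H at 27.7%, with ties at 0.856%, and the order was the same at regions open in all 6 day 4 lists (38.9%, 33.8% and 26.7%). The mean width over the 3 anterior-derived peaks had a median of 203 bp at regions open in no earlier list, 216 bp with 1, 224 bp with 2, 245 bp with 3 and 272 bp with all 4. The narrowest peak of a list was 122 to 126 bp in the anterior-derived lists and 109 to 115 bp in the posterior-derived lists, and the part of this difference in the counts was not tested.

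**Figure D3:**
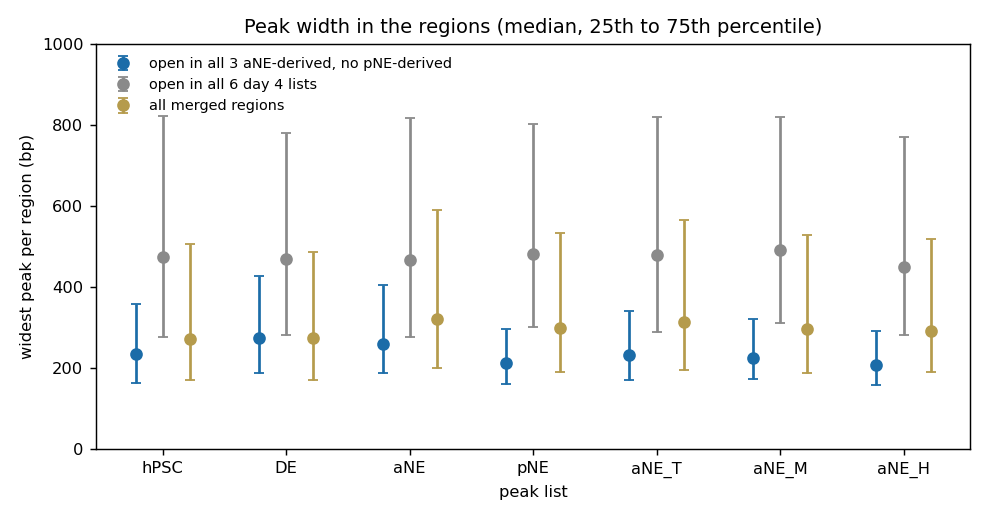
Width in bp of the widest peak per region in the 4 earlier and the 3 anterior-derived lists (points, medians; bars, 25th to 75th percentiles), for the anterior-derived regions, the regions open in all 6 day 4 lists and all merged regions open in that list. The anterior-derived regions have medians of 208 to 273 bp and reach the median of all regions in DE.

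The 3 anterior-derived peaks of a region usually shared sequence. At 2928 regions (96.4%) at least 1 bp lay in peaks of all 3, with a median shared stretch of 140 bp over the 3037 regions, and at 932 (30.7%) this stretch made up at least 50% of the merged region. The merged regions had a median width of 396 bp, against 382 bp at other regions of exactly 3 day 4 lists, 497 bp in the posterior-derived set and 805 bp where all 6 day 4 lists were open.

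The 3 regions with the widest anterior-derived peaks are given for each of 4 histories. Among the 954 open in hPSC, DE and aNE, the widest was chr1:54297659-54298768 within SSBP3, which codes for a single-stranded DNA-binding cofactor of LIM-domain complexes. Its peak was 561 bp wide in hPSC, 877 in DE, 837 in aNE, 359 in pNE, 923 in aNE_T, 1077 in aNE_M and 719 in aNE_H. Second came chr7:50754141-50755798 within GRB10, an imprinted growth factor receptor adaptor, with uneven widths of 138 bp in aNE_T against 1054 bp in aNE_M and 1486 bp in aNE_H. The third, chr14:94728447-94729648, lay 38.6 kb from GSC, the organizer homeobox gene goosecoid. Its widths were 267 bp in hPSC, 646 in DE, 1202 in aNE, 533 in pNE, 1032 in aNE_T, 712 in aNE_M and 735 in aNE_H, so the widest peak was in the direct parent.

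Of the 645 regions open in DE and aNE but not hPSC, 2 of the 3 widest were already wide in DE. At chr14:38387383-38388471, 131 kb from CLEC14A, an endothelial lectin gene, the peak was 735 bp in DE, 926 in aNE, 568 in pNE, 962 in aNE_T, 925 in aNE_M and 1014 in aNE_H. At chr14:54472236-54473462, 1.02 kb from GMFB, the glia maturation factor beta gene, it was 1111 bp in DE, 1057 in aNE, 487 in pNE, 883 in aNE_T, 855 in aNE_M and 754 in aNE_H. Peaks at chr18:52722770-52723709 within DCC, the netrin receptor gene, went from 138 bp in DE to 727 in aNE and 384 in pNE, and then to 927 in aNE_T, 911 in aNE_M and 883 in aNE_H. At this DCC region the nearest posterior-derived peak was 133 bp away.

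The 40 regions whose only earlier peak was in aNE had a median aNE peak width of 203.5 bp, against 259 bp over all 1733 open in aNE. Within DNAH5, a dynein heavy chain gene of motile cilia, chr5:13709531-13710257 had 138 bp in aNE, 314 in aNE_T, 534 in aNE_M and 544 in aNE_H. At chr2:147649060-147649841, 195 kb from the activin receptor gene ACVR2A, the widths were 297, 309, 689 and 378 bp in the same order, with a posterior-derived peak 203 bp away. At chr12:13421523-13422034, 115 kb from GRIN2B, an NMDA receptor subunit gene, they were 176, 292, 427 and 512 bp. Among the 281 regions with no earlier peak, the widest was chr10:30155187-30155959, 39.7 kb from JCAD, a junctional protein gene, with 746 bp in aNE_T, 417 in aNE_M and 312 in aNE_H. It was followed by chr5:9944348-9945031, 40.5 kb from the taste receptor gene TAS2R1, with 317, 659 and 488 bp. The third was chr14:69487241-69487896 within PLEKHD1, with 624, 598 and 216 bp. No single medium had the widest peak at all of these regions.

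The regions lay away from gene ends more often than the shared open chromatin did. Within 1 kb of an end of any annotated gene lay 260 (8.56%, 7.62 to 9.61%), against 7.64% of the posterior-derived set, 23.7% of the regions open in all 6 day 4 lists and 11.2% of all regions. For protein-coding genes the shares were 3.75% (3.13 to 4.49%), 2.06%, 16.2% and 5.64%. Other regions of exactly 3 day 4 lists had 8.14% near any gene end and 2.77% near a protein-coding one, so a position away from gene ends was shared by them. The anterior-derived regions overlapped a protein-coding gene at 53.6%, near the 51.0% of all merged regions. The share was 46.3% in the posterior-derived set and 56.2% at regions open in all 6 day 4 lists. The median distance of the anterior-derived regions to an end of a protein-coding gene was 38.8 kb, against 66.3 kb in the posterior-derived set and 43.2 kb over all regions.

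Every autosome held some of the regions. Their share of a chromosome's merged regions ran from 0.492% on chromosome 6 (146 regions) to 0.871% on chromosome 16 (131 regions), with 0.840% on chromosome 17. The posterior-derived share ran from 1.29% on chromosome 19 to 2.91% on chromosome 4. There were 56.9 anterior-derived per 100 posterior-derived regions on chromosome 19, 46.6 on chromosome 16 and 46.5 on chromosome 17, against 18.1 on chromosome 4 and 19.4 on chromosome 6. Neighbouring anterior-derived regions were a median of 493 kb apart and 8.29% of gaps were at most 50 kb, against 144 kb and 23.8% in the larger posterior-derived set.

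**Figure D4:**
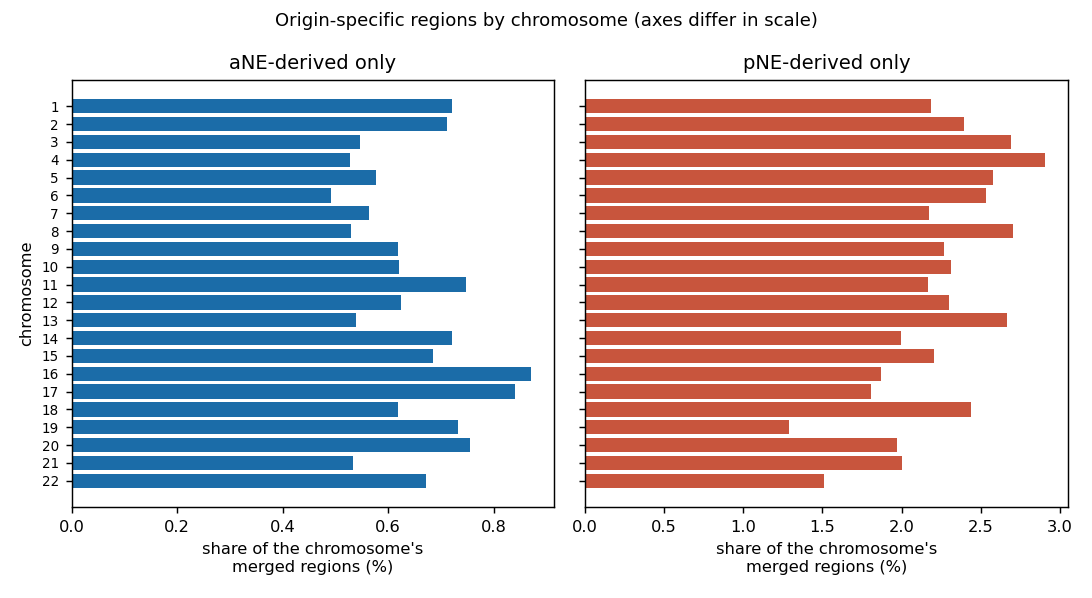
Anterior-derived (left) and posterior-derived (right) regions as a percentage of each chromosome's merged regions, on axes of different scale. Chromosomes 16 and 17 have the longest bars on the left, at 0.871% and 0.840%, and chromosomes 4 and 19 the longest and shortest on the right, at 2.91% and 1.29%.

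The densest runs of 5 neighbouring regions were at 3 places. On chr5:172230779-172322348 the 5 lay within 91.6 kb at UBTD2, a ubiquitin domain gene, among 30 merged regions, 4 of them open in DE and 4 in pNE. On chr16:26592347-26724688 they lay within 132 kb holding no protein-coding gene, 3 open in hPSC, 2 in DE, 2 in pNE and 0 in aNE. On chr11:73868639-74128873 they lay within 260 kb over UCP2 and UCP3, mitochondrial carrier genes, and C2CD3, COA4, DNAJB13 and PAAF1, with 4 of the 5 open in DE. Of all 3037 regions 72.4% were open in DE and 63.9% in pNE, so 4 of 5 is not read as a trait of these places.

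No gene gathered many of the regions. By nearest end of a protein-coding gene, 1954 genes had 1, 330 had 2, 85 had 3, 32 had 4 and 8 had 5. The 8 were AUTS2, MAF, MATN1, MYT1L, PPARGC1A, PTPRT, SMYD3 and SOX11. Of all 3037 regions 47.3% were open in hPSC, 72.4% in DE, 57.1% in aNE and 63.9% in pNE. The earlier states given for these genes rest on 5 regions each and are not read as traits of a gene. AUTS2, a gene linked to neurodevelopmental disorders, held all 5 within its body, 4 of them open in DE, 3 in aNE and 2 in pNE. Its widest, chr7:70343290-70344094, had 557 bp in DE, 748 in aNE, 324 in pNE, 707 in aNE_T, 772 in aNE_M and 695 in aNE_H, without a peak in hPSC. SMYD3, a lysine methyltransferase gene, also held all 5, each open in DE, 4 in pNE and 2 in aNE. PPARGC1A, the gene of a coactivator of mitochondrial genes, held 5 as well, with 3 open in hPSC.

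SOX11, a transcription factor gene of immature neurons, was the nearest gene of 5 regions that all lay 325 to 690 kb away. At these 5, pNE was open at each and hPSC, DE and aNE at 4 each. MYT1L, a zinc finger gene of neuronal identity, had 3 within and 2 outside it, 1 of these open in no earlier list. MAF, a leucine zipper factor gene, had its 5 at 156 to 445 kb, 4 of them open in DE. MATN1, a cartilage matrix gene, had none inside it, and PTPRT, a receptor tyrosine phosphatase gene of neurons, had 3 inside. The same 8 genes had 3 to 11 posterior-derived regions each, and 165 to 573 merged regions.

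Genes of brain patterning, signalling and cell identity were then read from 12 lists, counting regions inside a gene or within 50 kb. Of 257 matched genes 70 (27.2%) had at least 1 anterior-derived region, against 18.4% of all 19126 protein-coding genes. Counted by region the lists were close to the background, with 78 of 11359 merged regions (0.687%, against 0.638% overall). Of those 78, 58 were open in DE, 54 in pNE, 40 in aNE, 39 in hPSC and 4 in no earlier list. The shares of all 3037 regions were 72.4%, 63.9%, 57.1%, 47.3% and 9.25% in the same order. The median gene had 0, as over all protein-coding genes. The list genes named, other than the 4 with 3 regions each, were picked after their values were seen.

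Forebrain and eye field factors had the smallest share. Their 24 matched genes held 2 anterior-derived of 708 merged regions (0.282%), beside 11 posterior-derived ones (1.55%). Both shares were below those of all merged regions, 0.638% and 2.33%. The 2 lay at OTX1 and VAX1, homeobox genes of the anterior brain and the optic region. The VAX1 region, chr10:117159388-117159907, 21.1 kb from the gene, was 507 bp wide in hPSC, 395 in DE, 509 in aNE, 442 in pNE, 487 in aNE_T, 361 in aNE_M and 387 in aNE_H. It was open at similar width from the stem cells on. The OTX1 region, chr2:63007604-63008269 within EHBP1, had no peak in hPSC, 165 bp in DE, 259 in aNE, 278 in pNE, 222 in aNE_T, 651 in aNE_M and 131 in aNE_H. Midbrain and boundary factors held 7 of 771 (0.908%), 2 of them at PAX5, a gene of the midbrain and hindbrain boundary, and 2 at LMX1A, a roof plate and midbrain gene.

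Hindbrain factors held 6 of 852 (0.704%), beside 36 posterior-derived regions (4.23%, against 2.33% overall), and since HOX windows overlap, 13 of the 26 genes shared these 6. One lay in HOXB3, chr17:48554476-48554729, with 161 bp in pNE, 195 in aNE_T, 183 in aNE_M and 203 in aNE_H. Region chr2:66604851-66605986, 31.0 kb from the HOX cofactor gene MEIS1, had 135 bp in pNE, 1036 in aNE_T, 778 in aNE_M and 174 in aNE_H. Genes of the retinoic acid pathway held 7 of 891 (0.786%). At CYP26A1 and CYP26C1, which code for retinoic acid degrading enzymes, 1 region within EXOC6, chr10:93051264-93051465, had 113 bp in hPSC, 126 in DE, 138 in aNE_T, 129 in aNE_M and 194 in aNE_H, without one in aNE or pNE. The region counted for RARA, the retinoic acid receptor alpha gene, lay within CDC6, 12.8 kb from RARA. This region, chr17:40295335-40296341, had 889 bp in hPSC, 915 in DE, 972 in aNE, 953 in pNE, 916 in aNE_T, 512 in aNE_M and 311 in aNE_H.

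**Figure D5:**
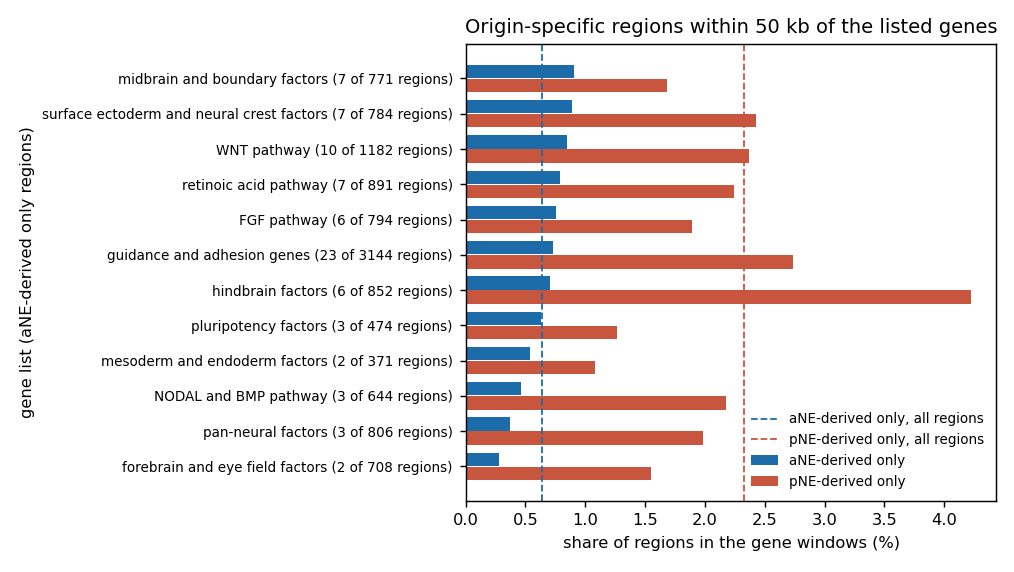
Anterior-derived and posterior-derived regions as a percentage of the merged regions inside or within 50 kb of the genes of each list, with the shares over all regions as dashed lines. The anterior-derived bars run from 0.282% (forebrain and eye field) to 0.908% (midbrain and boundary) around the overall 0.638%, on 2 to 23 regions a list, and the longest posterior-derived bar is that of hindbrain factors at 4.23%.

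Among the signalling lists the WNT pathway held 10 of 1182 (0.846%), the FGF pathway 6 of 794 (0.756%) and the NODAL and BMP pathway 3 of 644 (0.466%). WNT8B, a WNT ligand gene of the forebrain midline, had 2. Of the 10 WNT regions 8 were open in DE, near the 72.4% of all 3037 regions. The 2 regions at FGF19, an FGF ligand gene, differed, one open in hPSC and DE and the other, 0.688 kb from the gene, in no earlier list, with 193 bp in aNE_T, 239 in aNE_M and 559 in aNE_H. Of the 6 FGF regions 4 were open in DE, 1 in aNE and 1 in pNE, against 72.4%, 57.1% and 63.9% of all 3037 regions. Guidance and adhesion genes held 23 of 3144 (0.732%) and included 3 of the 4 genes with 3 regions each, namely DCC, the ephrin receptor gene EPHB1 and the semaphorin receptor gene PLXNA2. Of all 19126 protein-coding genes 107 (0.559%) had 3 or more. Posterior-derived regions numbered 6 of 157 merged regions at DCC, 7 of 140 at EPHB1 and 3 of 125 at PLXNA2, against 2.33% of all merged regions. In EPHB1, chr3:135040355-135041469 was open in all 4 earlier lists, with 236 bp in hPSC, 1115 in DE, 789 in aNE, 674 in pNE, 830 in aNE_T, 853 in aNE_M and 567 in aNE_H. In PLXNA2 each of the 3 was open in hPSC, against 47.3% of all 3037 regions.

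The surface ectoderm and neural crest list held 7 of 784 (0.893%). The fourth gene, PAX7, was of this list and had 0 posterior-derived regions among 75 merged regions. Since only 2.33% of all merged regions were posterior-derived, few would be expected among 75, and the 0 is not read as a trait of PAX7. The PAX7 region chr1:18707820-18708387 was 265 bp wide in hPSC, 458 in DE, 400 in aNE, 410 in aNE_T, 243 in aNE_M and 191 in aNE_H, without a peak in pNE. For the other identity lists the values were 3 of 806 for pan-neural factors (0.372%), 3 of 474 for pluripotency factors (0.633%) and 2 of 371 for mesoderm and endoderm factors (0.539%), against 0.638% of all regions. Since the libraries are bulk, fewer cells with an open site and less opening per cell cannot be told apart at any of them.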

How the data were processed

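OmniATAC-seq libraries of 30 H1 samples (10 groups of 3) were summarised by the authors as 10 deposited peak lists, 1 per group, with 3 columns (sequence name, start, end) and no score. Per the submitters' processing notes the build is hg38 and the tools include FastQC, Bowtie2, MACS2, bedtools, featureCounts, edgeR and deepTools. The calling threshold and the way replicates were combined are not given in the sources used here, and a change of either between lists would move every count. Peaks on chromosomes 1 to 22 were merged at 1 bp overlap. Gene positions, promoters (250 bases before to 50 after an annotated start) and hairpins came from RefSeq tables of GRCh38.p14, and no other sequence was used. Of 262 listed genes 257 were matched on these chromosomes, CRIPTO through its older symbol. Calculations used Python 3.11.15, numpy 2.4.6, pandas 2.3.3 and statsmodels 0.14.6, and the merging was tested on simulated lists. No test was possible, so shares carry Wilson 95% intervals.

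The genes and regions named are those with most regions by nearest gene end (12 were sought, and 32 genes tied at 4, so the 8 with 5 are named), list genes with at least 3 regions, the 3 widest regions of each of 4 histories, the 3 densest runs and the 8 most covered protein-coding promoters. The regions and the gene lists were chosen with earlier results of these data known. Alternatives were other openness rules, list sizes, windows and distances and leaving out each day 4 list.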

Additional observations from a re-analysis of the deposited data

Results flagged for a closer look

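Chromosome X was outside the rule. Of its 16790 merged regions, 86 (0.512%) were open in all 3 anterior-derived lists and in no posterior-derived list. These data were not used in the comparisons, and the share was below the 0.638% on chromosomes 1 to 22. DE was open at 68 of the 86, aNE at 61, pNE at 56 and hPSC at 49. The opposite set held 402 regions there (2.39%).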

How the results depend on the processing

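Of 97 values recomputed under alternatives, 38 moved by less than their counting interval (or, for the number of regions, by under 1.5 times), 57 moved by more and 2 changed sign. Nothing moved with windows of 500 bp at peak midpoints, without regions having a posterior-derived peak within 500 bp, or without those within 1 kb of a gene end. Values are given in the order hPSC, DE, aNE, pNE, aNE minus pNE in points, and no earlier list. With peaks required to cover 50% of a region they were 37.1%, 59.4%, 49.5%, 58.6%, -9.13 and 13.6%. With all lists at the size of the shortest (4928 regions) they were 50.0%, 60.3%, 67.7%, 69.3%, -1.58 and 8.83%. Where the shared stretch was at least 50% of the region (932 regions) they were 36.2%, 66.0%, 52.3%, 62.4%, -10.2 and 12.6%. With the widest 50% of each list (1594 regions) they were 43.8%, 68.8%, 54.6%, 63.8%, -9.16 and 11.0%. With only the 4 earlier lists shortened, an alternative chosen after seeing the data, they were 36.7%, 53.2%, 57.1%, 45.7%, 11.4 and 18.5%, which reversed the order of aNE and pNE. That cut left aNE, the shortest list, unchanged.

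Leaving out each day 4 list in turn gave 4054 to 8601 regions, open at 29.5 to 51.9% in hPSC, 40.2 to 72.9% in DE, 25.7 to 58.9% in aNE and 41.4 to 73.4% in pNE, with 7.53 to 27.7% in no earlier list. The lowest hPSC, DE and aNE shares and the highest share in no earlier list came without aNE_T. The aNE minus pNE difference ran from -26.4 (without aNE_T) to 7.79 (without aNE_H), the second a reversal. The causes were not tested. No paired analysis was possible because each group has 1 list for its 3 replicates. Depth is unknown, so a missing peak may be a site below the calling threshold.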

Other observations

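Of 1461 annotated microRNA hairpins on chromosomes 1 to 22, 4 overlapped an anterior-derived region. Overlaps with all merged regions or the posterior-derived set were not counted, so the 4 are listed as positions only. MIR519B (chr19:53695213-53695293) and MIR518F (chr19:53700015-53700101) belong to the large primate microRNA cluster of chromosome 19, known from placenta and pluripotent cells. The region at MIR519B was open in DE, aNE and pNE, and that at MIR518F in no earlier list. The regions at MIR4423 (chr1:85133794-85133873) and MIR4306 (chr13:99643059-99643149) were open in all 4 earlier lists.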
